A study of Auxenochlorella pyrenoidosa with 12 samples.

Results

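The late drift of the treated transcriptome, from day 6 to day 12 of exposure, was described over 20033 of the 30814 contigs of the deposited table. A contig (an assembled transcript sequence) was taken when it had at least 1 FPKM in both libraries of day 6 or in both libraries of day 12. FPKM is the number of fragments scaled to transcript length and to the fragments of the library. The study exposed Chlorella pyrenoidosa, also named Auxenochlorella pyrenoidosa, to potassium peroxymonosulfate (PMS), and the day 6, day 9 and day 12 groups were all treated at 8.49 mg/L, 0.5 of the acute EC50. Each group held 2 RNA sequencing libraries of total RNA from whole cells, as did treated day 0, treated day 3 and a control without PMS. Whether separate cultures gave the libraries of a group is not in the labels, so the p-values measure the spread between these libraries, which may be technical. The title of the control libraries can be read as a dose or as a day, so the age of the control is uncertain wherever it is set beside a treated day. No control labelled as day 6 or day 12 was analysed here, so exposure and the age of the culture cannot be told apart in this comparison.

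Chlorella pyrenoidosa is a unicellular freshwater green alga that is widely used in toxicity tests. PMS is an oxidant of water treatment that decays in water and can form radicals, and algae are known to answer oxidants with antioxidant enzymes and with changes of the photosynthetic apparatus. Transcript levels of algal cultures also change with age, as nutrients run down and denser cultures shade themselves. Gene names are not paired with the contigs of the table, so none of these functions could be assigned and contigs are described by level and course. A bulk library also cannot tell a change within every cell from a change in the makeup of the culture.

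The most abundant contigs took a smaller share of the library on day 12 than on day 6. The 100 most abundant contigs of each library held 46.3% and 46.8% of total FPKM in the day 6 libraries, 43.8% and 37.0% in the day 9 libraries, and 34.9% and 35.5% in the day 12 libraries. The groups of day 6 and day 12 did not overlap, and the day 9 libraries lay between them, library 1 near day 6 and library 2 near day 12. The control libraries stood at 41.4% and 42.6%, between day 6 and day 12. The single most abundant contig held 10.2% and 10.9% on day 6 and 6.71% and 6.47% on day 12. Total FPKM was 563295 and 552670 on day 6 and 490864 and 489046 on day 12, so the unit itself was not on an equal total. The number of reads behind a library is unknown.

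**Figure D1:**
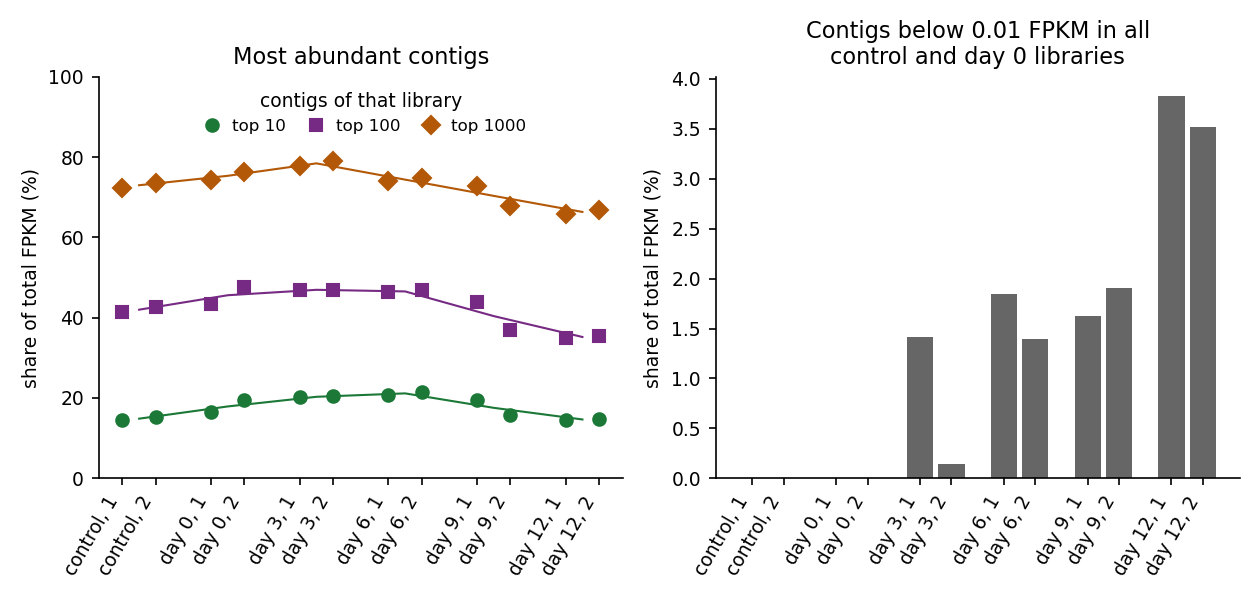
Left, the share of total FPKM (percent) held by the 10, 100 and 1000 most abundant contigs of each library, with points for libraries and lines through the group means; the top 100 go from 46.3% and 46.8% on day 6 to 34.9% and 35.5% on day 12. Right, bars give the share of total FPKM (percent) held by the 8281 contigs that did not reach 0.01 FPKM in any control or day 0 library, which reaches 3.83% and 3.52% on day 12.

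Of the 20033 contigs tested, 8393 differed between day 12 and day 6, 5861 of them higher and 2532 lower on day 12 (limma on log2(FPKM + 1) with Benjamini-Hochberg adjusted p under 0.05). This is 41.9% of the tested contigs, 29.3% higher and 12.6% lower. The way a contig entered the test fixes much of this balance. Of the 5603 contigs that reached 1 FPKM in both libraries on day 12 only, 3556 were called higher and 0 lower. Of the 1492 that reached it on day 6 only, 404 were called lower and 0 higher. The direction of these contigs is therefore no result. Unless another set is named, the accounts below of courses and shares use contigs at 1 FPKM or more in all 4 libraries. Values over all called contigs are named as such. The named contigs and the lists of largest changes were picked from all called contigs, and some of them entered through 1 day only.

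Among the 12938 contigs at 1 FPKM or more in all 4 libraries, rises and falls were about equally frequent in FPKM as deposited. Of these, 2305 rose and 2128 fell, which is 17.8% and 16.4%, and 34.3% were called in either direction. The median change over the 12938 was -0.01 on the log2 scale. The rises were larger than the falls, by a median of 1.83-fold against 1.51-fold on the log2(FPKM + 1) scale, which understates changes of low contigs. A change of 2-fold or more was called for 984 rising and 176 falling contigs, 7.61% and 1.36% of the 12938 and 8.97% together. Over all 20033 contigs it was called for 3332 rising and 365 falling ones, 16.6% and 1.82%, 18.5% together. This condition keeps out contigs that start from near 0 on day 6 or end there on day 12. Of the 438 rises of 4-fold or more over all tested contigs, 196 met it, as did 6 of the 29 falls of that size.

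The balance between rises and falls depended on the scaling of the libraries. When libraries were set to the same total FPKM, 2981 of the 12938 contigs were higher and 1162 lower, so the share of falls among the calls went from 48.0% to 28.0%. This scaling moved the median change of these contigs from -0.01 to 0.15 on the log2 scale. With libraries set to their median ratio the calls were 2269 higher and 2095 lower, and falls made up 48.0%. Under all 3 scalings 2162 of the rises and 1154 of the falls were called, 93.8% and 54.2% of those called in FPKM as deposited. Over the 20033 contigs, 5563 rises and 1478 falls were called under all 3.

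The number of calls fell when any single library of the 2 days was left out. Each such fit leaves 1 library in a group, which makes a call harder to reach, and tests another set of contigs. How much of the drop comes from this was not tested. It was 3328 higher and 1011 lower without day 6 library 1, and 3684 higher and 1520 lower without day 6 library 2. It was 3825 higher and 1133 lower without day 12 library 1, and 5533 higher and 1578 lower without day 12 library 2. Among contigs at 1 FPKM or more in all libraries left of these days, the 4433 calls became 1936 and 2496 when library 1 or 2 of day 6 was left out, and 2067 and 2862 when library 1 or 2 of day 12 was. The 2 libraries of a day resembled each other more than libraries of different days. Over the 12938 contigs at 1 FPKM or more in all 4 libraries, the Pearson correlation of log2(FPKM + 1) was 0.984 within day 6 and 0.987 within day 12. Between the days it was 0.91 to 0.931. Their median absolute difference was 0.113 between the day 6 libraries and 0.116 between the day 12 libraries, against 0.358 between the means of the days. Over all 20033 contigs, entry through 1 day only widens the gap between the days. There the correlation was 0.980 within day 6, 0.979 within day 12 and 0.885 to 0.912 between the days. The median absolute differences were 0.148 and 0.149, against 0.51 between the means. Contigs are no independent replicates, and these values describe the libraries. The day 12 libraries both lay outside the range of the day 6 libraries for 16035 contigs, 80.0%, above it for 9996, 49.9%, and below it for 6039, 30.1%. Among the 12938 at 1 FPKM or more in all 4 libraries this held for 9964, 77.0%.

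**Figure D2:**
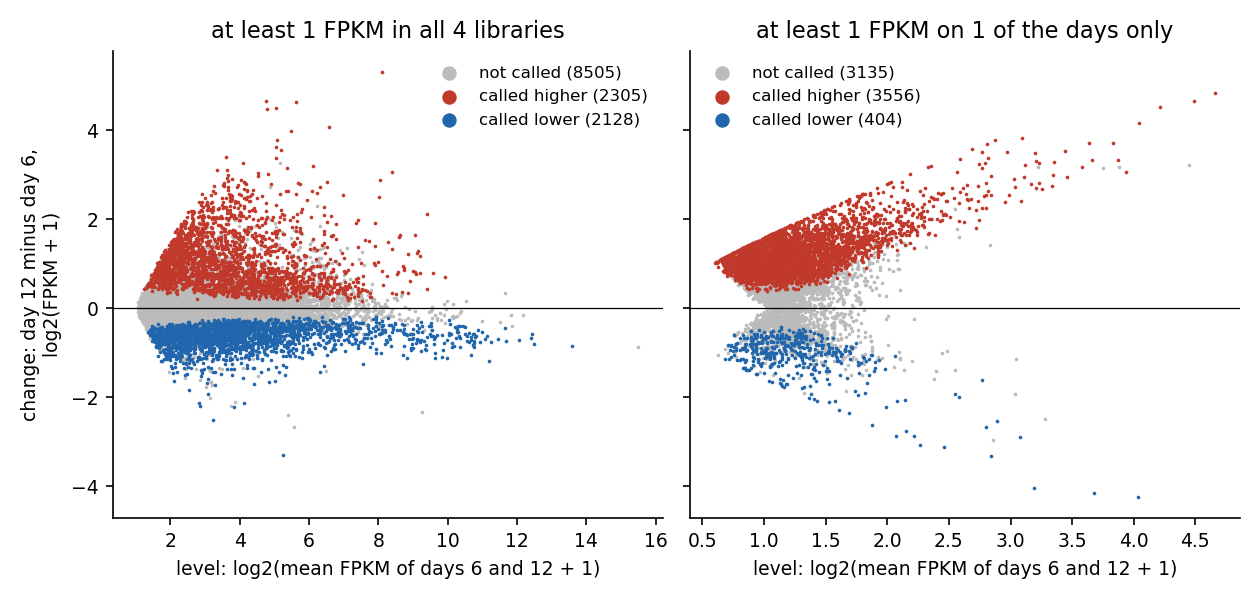
Each point is a contig, with its level (log2 of mean FPKM of days 6 and 12, plus 1) on the horizontal axis and its change (day 12 minus day 6 on log2(FPKM + 1)) on the vertical axis. Left, 12938 contigs at 1 FPKM or more in all 4 libraries, with 2305 called higher and 2128 called lower; right, the contigs at that level on 1 day only, whose direction the filter largely fixes.

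Falls were most frequent among the most abundant contigs. Of the 660 contigs with a mean of 100 FPKM or more over the 4 libraries, 265 fell and 122 rose, which is 40.2% and 18.5%, against 16.4% and 17.8% of the 12938. At the same total FPKM per library 187 of them were lower and 157 higher, 28.3% and 23.8% against 8.98% and 23.0% of the 12938, and their median change was -0.003 on the log2 scale. The 265 falls and 122 rises became 87 and 62 when day 6 library 1 was left out, and 141 and 85 for its library 2. They became 91 and 66 when day 12 library 1 was left out, and 168 and 79 for its library 2. In the next class, 20 to 100 FPKM, 489 of the 2444 contigs at 1 FPKM or more in all 4 libraries fell and 573 rose. From 5 to 20 FPKM 925 of 4804 fell, 19.3%, and 955 rose, 19.9%. From 1 to 5 FPKM 449 of 5030 fell, 8.93%, and 655 rose. Rises of 2-fold or more numbered 302 of 5030 contigs from 1 to 5 FPKM, 479 of 4804 from 5 to 20 FPKM, 171 of 2444 from 20 to 100 FPKM and 32 of 660 at 100 FPKM or more.

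Most of the top of the range fell moderately, and a few contigs held much of the shift. The 10 most abundant contigs of each library held 20.8% and 21.5% of total FPKM on day 6 against 14.6% and 14.7% on day 12. Of the 100 contigs most abundant by the mean of the 4 libraries, 68 fell and 2 rose, with a median change of -0.58 on the log2 scale. With libraries at their median ratio 51 were called lower and 2 higher, and at the same total FPKM 57 lower and 4 higher. The lists of the 100 most abundant contigs of day 6 and of day 12 shared 82 contigs. The most abundant contig stood at 57707 and 60512 FPKM on day 6 and at 32956 and 31628 FPKM on day 12. Its groups did not overlap, with a log2 change of -0.87 (SE 0.39) that did not pass the test (limma adjusted p = 0.1) in FPKM as deposited. At the same total FPKM the log2 change was -0.68 and passed it (limma adjusted p = 0.0215), and at the median ratio it was -0.90 and did not (limma adjusted p = 0.304).

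Together, the 2128 falling contigs at 1 FPKM or more in all 4 libraries went from 45.9% and 45.1% of total FPKM on day 6 to 32.2% and 33.5% on day 12, with 42.8% and 37.1% on day 9. The 2305 rising ones went from 7.70% and 8.27% to 17.8% and 17.2%, with 10.8% and 14.4% in the day 9 libraries. The lists were chosen on these libraries of days 6 and 12, so these shares describe how much of the library they hold. In FPKM as deposited, the loss lay in fewer contigs than the gain, and this was not computed under the other scalings. Over all called contigs, the 100 with the largest loss made up 71.4% of the FPKM lost by falling contigs, and the 100 with the largest gain 36.1% of the FPKM gained by rising ones.

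Among called contigs that averaged 5 FPKM or more over the 4 libraries, TRINITY_DN1921_c0_g1_i1_2 had the largest rise on the log2(FPKM + 1) scale. It stood at 13.3 and 12.0 FPKM in the day 6 libraries, at 92.6 and 96.4 in the day 9 libraries and at 532 and 545 in the day 12 libraries. The groups were far apart, and each later day lay above the one before. The level was 12.6 ± 0.909 FPKM on day 6 and 538 ± 9.04 on day 12 (SD, n = 2), 42.6-fold higher (log2 change 5.31, SE 0.10; limma adjusted p = 5.76e-08). Folds of the named contigs are ratios of mean FPKM, while their log2 changes are on log2(FPKM + 1). It had been low throughout the early samples, with 2.43 and 2.19 FPKM in the control, 3.90 and 3.69 on day 0 and 13.3 and 10.9 on day 3.

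Among called contigs the largest gain in FPKM was that of TRINITY_DN7862_c0_g1_i1_4. It stood at 252 and 255 FPKM on day 6, at 440 and 626 on day 9 and at 1130 and 1087 on day 12. Its groups did not overlap and the day 9 libraries lay between them. The level was 253 ± 1.69 FPKM on day 6 and 1108 ± 30.5 on day 12 (SD, n = 2), 4.37-fold higher (log2 change 2.12, SE 0.15; limma adjusted p = 3.53e-05). Its earlier course was a step up by day 3, from 12.8 and 12.3 FPKM in the control and 29.7 and 32.2 on day 0 to 282 and 331 FPKM in the day 3 libraries.

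The called contig with the largest fall on the log2(FPKM + 1) scale at a mean of at least 5 FPKM, TRINITY_DN787_c0_g1_i1_3, was high on day 6 only. It was listed at 0 in both control libraries and in both day 0 libraries, and stood at 1.41 and 0.0772 FPKM on day 3. It reached 36.6 and 23.6 FPKM on day 6 and stood at 1.57 and 2.19 on day 9 and at 0.706 and 0.534 on day 12. Most of the fall was therefore complete by day 9. Under 1 FPKM in both day 12 libraries, this contig entered the test through day 6 only, so its direction is no result. The level was 30.1 ± 9.22 FPKM on day 6 and 0.620 ± 0.122 on day 12 (SD, n = 2), 48.5-fold lower in mean FPKM. On log2(FPKM + 1), where the fall is smaller, the change was -4.23 (SE 0.35, limma adjusted p = 9.94e-05).

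The called contig with the largest loss in FPKM, TRINITY_DN318_c0_g1_i2_3, was the second most abundant by its mean on either day, after the contig above that lost more but was not called. It stood at 16606 and 15128 FPKM on day 6, at 14534 and 10944 on day 9 and at 8622 and 9056 on day 12, close to the control at 7629 and 8312. The level was 15867 ± 1045 FPKM on day 6 and 8839 ± 307 on day 12 (SD, n = 2), 1.80-fold lower (log2 change -0.84, SE 0.23; limma adjusted p = 0.0200). This call did not hold at the median ratio of the libraries (log2 change -0.87, limma adjusted p = 0.0764) or without any single library of days 6 and 12 (limma adjusted p = 0.0765 to 0.158), while at the same total FPKM it did (log2 change -0.66, limma adjusted p = 0.0055). The other named contigs were called under each scaling.

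**Figure D3:**
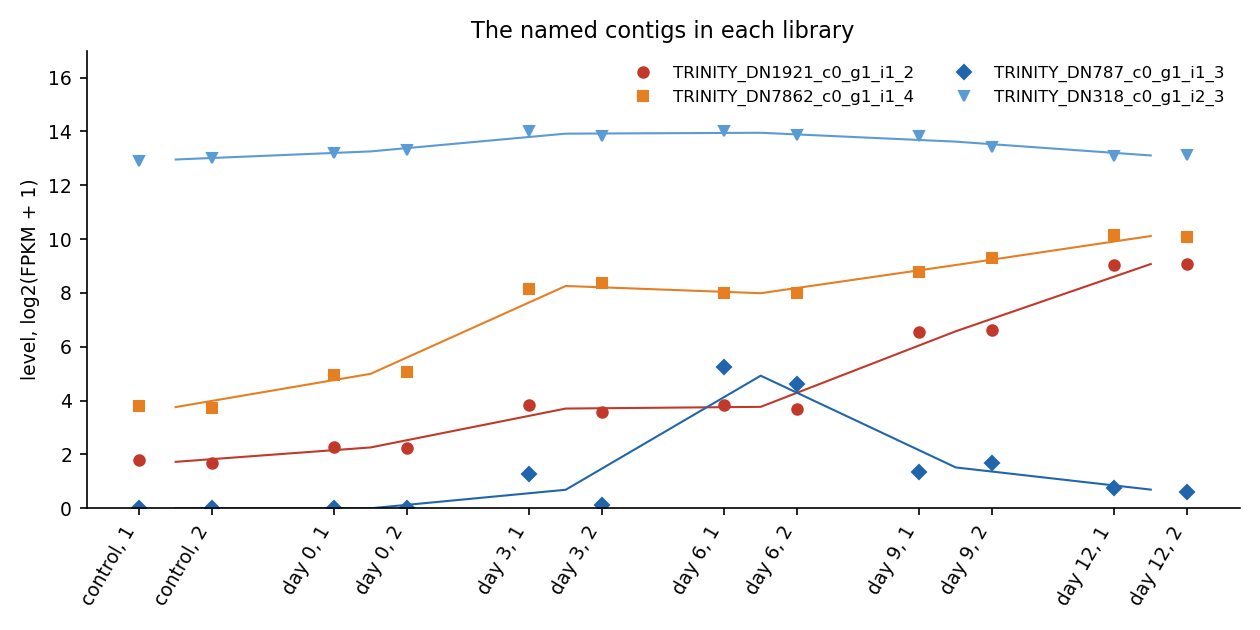
Level of the 4 named contigs, as log2(FPKM + 1), in each of the 12 libraries, with a line through the group means. TRINITY_DN787_c0_g1_i1_3 stands out on day 6 at 36.6 and 23.6 FPKM and is under 3 FPKM in every other library, while TRINITY_DN1921_c0_g1_i1_2 climbs to 532 and 545 FPKM on day 12.

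The largest log2 changes of each direction with a mean of at least 5 FPKM are described as lists. Each list includes the named contig with the largest log2 change in its direction. Several of the listed rises entered the test through day 12 only, and many of the listed falls through day 6 only. The direction of those contigs is no result. Among the 10 largest rises on the log2 scale, from 4.07 to 5.31, 5 contigs did not reach 0.01 FPKM in any library of the control or day 0. Over all 10 of these rises, day 6 values ran from 0.455 to 13.3 FPKM and day 12 values from 26.3 to 545 FPKM. In 9 of the 10 both day 9 libraries lay above both day 6 libraries. The exception, the tenth largest rise, stood at 7.95 and 12.0 FPKM on day 6, at 9.95 and 94.4 FPKM on day 9 and at 172 and 189 FPKM on day 12, so its first day 9 library lay within the range of day 6 and its second well above it. Among the 10 largest falls, from -4.23 to -2.23 on the log2 scale, 9 stayed under 0.1 FPKM throughout the control and day 0, and the same number were below 2 FPKM in both day 3 libraries. Their day 6 values ran from 9.39 to 74.8 FPKM, and the highest day 12 value was 7.66 FPKM. All of these 20 contigs were called under each of the 3 scalings.

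Contigs first measured after day 0 gained in share by day 12. A set of 8281 contigs of the whole table did not reach 0.01 FPKM in any control or day 0 library, and its members are called early-unmeasured. In the day 6 libraries they held 1.85% and 1.40% of total FPKM. They held 1.63% and 1.91% in the day 9 libraries and 3.83% and 3.52% in the day 12 libraries. Of them, 2530 and 1705 reached 1 FPKM in the day 6 libraries and 5326 and 4769 in the day 12 libraries. The day 9 libraries lay within or just above the range of day 6, and both day 12 libraries lay well above all of these. The test took in 4040 of them, of which 2300 were called higher and 139 lower, but most entered through day 12 alone. Without day 6 library 2 these counts were 1507 higher and 249 lower.

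Among the contigs at 1 FPKM or more in all 4 libraries, where entry did not fix the direction, rises were more frequent in the early-unmeasured ones. Of these 985 contigs 284 rose and 25 fell, 28.8% and 2.54%, against 17.8% and 16.4% of all 12938. At the same total FPKM 369 rose and 16 fell, and at the median ratio 235 rose and 24 fell. Their median change was 0.55 on the log2 scale, against -0.04 for the 11953 early-measured ones. Of the early-measured ones, 2021 rose and 2103 fell in FPKM as deposited, and 2612 rose and 1146 fell at the same total FPKM. The count of 284 moved with the day 3 libraries, whose spread enters the shared variance estimate and where the early-unmeasured contigs held 1.42% of total FPKM in library 1 and 0.14% in library 2. It was 515 and 516 without the first and the second of them, and 474 when days 6 and 12 were fitted without the other libraries. With a pseudocount of 0.1 it was 41 in the fit of 12 libraries, against 1699 rises among all 12938, so that rises were then less frequent here than over all, and 447 in the fit of 4. Left without library 1 or 2 of day 6 it was 151 or 109, and without library 1 or 2 of day 12 it was 132 or 178. Falls numbered 11 to 39 in these fits. Leaving early-unmeasured contigs out of the test altogether gave 3367 rises and 2295 falls.

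A small number of contigs switched between unmeasured and measured across the interval. The number below 0.01 FPKM in both libraries was 1313 on day 6 and 527 on day 12. Of the former, 300 reached 1 FPKM in both day 12 libraries, and 193 of these were early-unmeasured. Their median was 0.183 and 0.614 FPKM in the day 9 libraries and 2.07 and 1.61 FPKM on day 12. The opposite switch was seen for 23 contigs, with medians of 2.14 and 1.87 FPKM in the day 6 libraries and 0.324 and 0.590 FPKM in those of day 9. A value of 0 is reported as listed in the table.

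**Figure D4:**
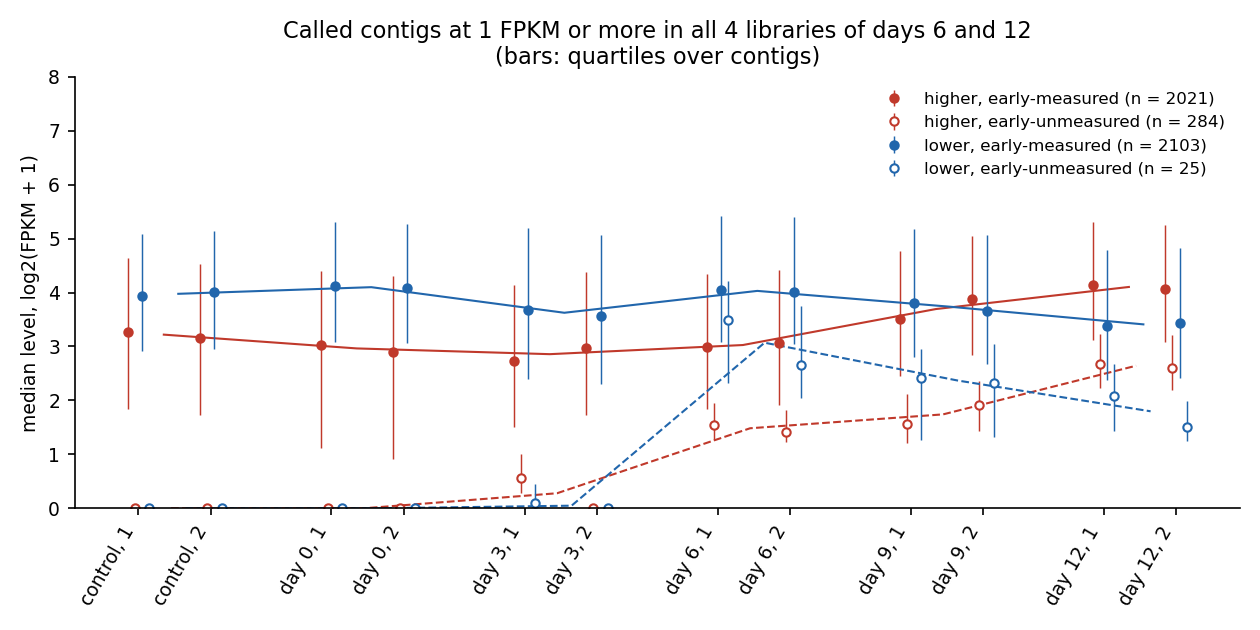
Median level, as log2(FPKM + 1), in each library for called contigs at 1 FPKM or more in all 4 libraries of days 6 and 12, split by direction and by whether they were early-unmeasured (open points, dashed lines), with bars for the quartiles over contigs and lines through the group means. The 25 early-unmeasured contigs called lower stand at medians of 10.2 and 5.30 FPKM on day 6, and the 284 called higher are highest on day 12.

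The earlier course of the called contigs is given for those at 1 FPKM or more in all 4 libraries of days 6 and 12. The 2021 rising early-measured contigs started from medians of 8.70 and 7.95 FPKM in the control and went through 7.12 and 6.50 FPKM in the day 0 libraries and 5.66 and 6.89 FPKM in the day 3 libraries. From 6.93 and 7.38 FPKM on day 6 their median went to 10.4 and 13.7 FPKM in the day 9 libraries and to 16.6 and 15.8 FPKM in those of day 12. The day 12 medians lay above those of all earlier libraries. The 2103 falling early-measured contigs had control medians of 14.4 and 15.1 FPKM, stood at 15.6 and 15.1 in the day 6 libraries, and reached 9.41 and 9.86 FPKM by day 12. The 284 rising early-unmeasured contigs stood at medians of 1.93 and 1.67 FPKM in the day 6 libraries, 1.95 and 2.79 FPKM in those of day 9 and 5.41 and 5.09 FPKM in those of day 12. The 25 falling early-unmeasured contigs went from medians of 10.2 and 5.30 FPKM in the day 6 libraries through 4.35 and 3.99 FPKM in those of day 9 to 3.23 and 1.86 FPKM in those of day 12.

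The position of the control was mixed for rises and for falls. In 1041 of the 2021 rising early-measured contigs at 1 FPKM or more in all 4 libraries, 51.5%, the control mean lay below both days, so that the rise went further from it. In 509, 25.2%, the control lay above both days, and in 471 between them. Over all rising early-measured contigs, those that entered through day 12 alone included, the control lay below both days in 1579 of 3561, 44.3%. Early-unmeasured contigs have a control at or near 0 by their definition and are left out here. Of the 2103 falling ones, the control mean lay above both days in 902, 42.9%, below both in 706, 33.6%, and between them in 495. These positions use the same libraries of days 6 and 12 as the calls and are a description. The 902 falling contigs below the control on both days started at medians of 20.8 and 21.4 FPKM in the control and stood at 11.8 and 11.1 on day 6, then 7.43 and 7.71 on day 12.

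Day 12 was the highest point of the whole series for most rising contigs. Of the 2305, 1465 had their highest group mean on day 12, 63.6%, and 268 on day 0. The lowest mean of these was on day 6 for 382. Of the 2128 falling contigs, 703 had their highest mean on day 6 and 789 on day 0, 33.0% and 37.1%, and 848 had their lowest on day 12. Rising contigs cannot be highest on day 6, nor falling ones on day 12, by the choice of the lists. That choice also favours a highest mean on day 12 among the rising ones. The 284 of them that were early-unmeasured cannot be highest in the control or on day 0. No share over contigs that were not called is set beside these, so they are a description.

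Over the called contigs, the day 9 libraries stood at different points between the days. For each contig a position was computed on log2(FPKM + 1), where 0 is the day 6 mean and 1 the day 12 mean. Over the 2305 rising contigs at 1 FPKM or more in all 4 libraries the median position was 0.348 for day 9 library 1 and 0.706 for library 2. Over the 2128 falling ones it was 0.370 for library 1 and 0.622 for library 2. Library 2 was thus further along in both lists. Over all 5861 rising contigs, of which 3556 entered through day 12 alone, the positions were 0.270 and 0.579. With a pseudocount of 0.1 they were 0.407 and 0.691, over the 4059 contigs then called higher. The mean of the day 9 libraries lay between the means of the other days for 80.8% of the 2305 and 87.8% of the 2128. These contigs were called on the same gap between day 6 and day 12 that scales the position, which favours a place between. No share over contigs that were not called was computed, so these positions are a description. The day 9 libraries differed more from each other than those of day 6 or day 12, with a median absolute difference of 0.292 on the log2 scale. Its part in these positions was not tested.

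Early-unmeasured contigs at 1 FPKM or more in all 4 libraries stood elsewhere. The 284 rising ones had a median position of -0.03 in day 9 library 1 and 0.25 in library 2, and 86.3% had a day 9 mean nearer to day 6. For the 2021 rising early-measured contigs the positions were 0.400 and 0.759, and 38.1% were nearer to day 6. The 25 falling early-unmeasured contigs were at 0.783 and 0.689, and here library 1 was further along than library 2. The 2103 falling early-measured contigs were at 0.363 and 0.621. These positions are a description, and the differences between the lists were not tested.

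**Figure D5:**
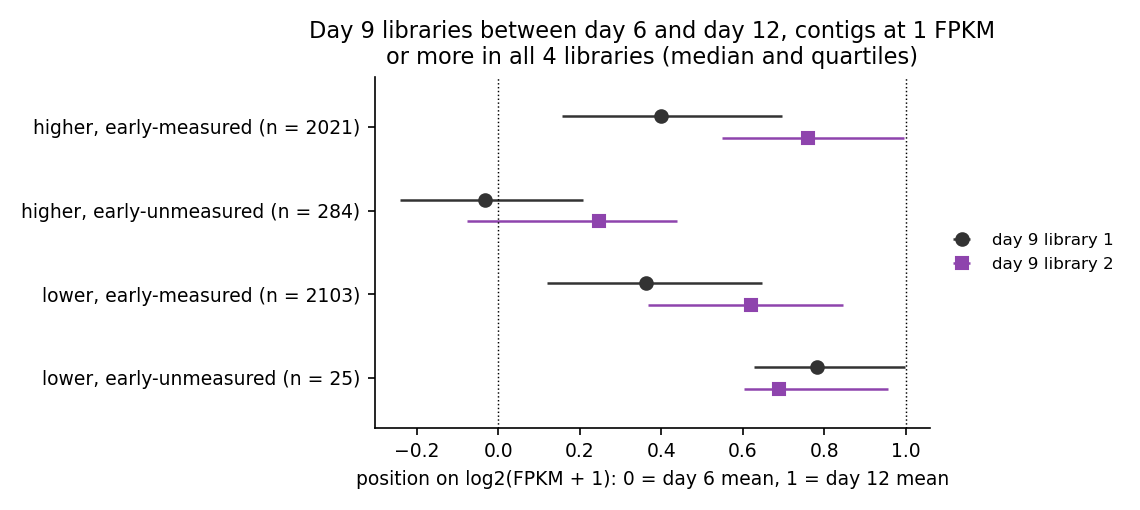
Position of the day 9 libraries on log2(FPKM + 1) between the day 6 mean (0) and the day 12 mean (1), with points for the median and bars for the quartiles over the contigs of each list, for contigs at 1 FPKM or more in all 4 libraries of days 6 and 12. Rising early-unmeasured contigs lie nearest to day 6, at -0.03 and 0.25, while the 25 falling early-unmeasured contigs lie at 0.783 and 0.689.

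A number from 1 to 4 closes each contig name. What it stands for was not among the sources used here, and the direction of change differed between these classes. Among contigs at 1 FPKM or more in all 4 libraries, 800 of the 3363 with number 4 rose and 418 fell, 23.8% and 12.4%. Of the 2380 with number 1, 284 rose and 444 fell, 11.9% and 18.7%, and of the 3437 with number 3, 496 rose and 638 fell, 14.4% and 18.6%. Those with number 2 lay near the 17.8% and 16.4% of all 12938, with 725 rises and 628 falls among 3758. At the same total FPKM rises were the more frequent in every class, with 996 against 231 for number 4 and 379 against 231 for number 1. Without early-unmeasured contigs, number 4 had 689 rises and 413 falls among 3066, and number 2 turned to 575 rises and 620 falls among 3265. Numbers 1 and 3 then had 284 rises and 444 falls among 2355 and 473 rises and 626 falls among 3267. Contigs that share sequence can share fragments, and the rule that divided these was not among the sources used here.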

How the data were processed

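The 12 libraries were made from total RNA with an Illumina TruSeq RNA kit, per the labels' protocols. The authors deposited FPKM values for 30814 contigs named in the style of the Trinity assembler. Assembly settings, abundance program and read filters were not among the sources used here, and depth in reads is unknown. Dose, day and replicate were read from the titles.

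Values were analysed as log2(FPKM + 1), with a pseudocount of 1, in limma 3.58.1 and R 4.3.3. All 12 libraries entered 1 fit of 6 group means with an intensity trend, which left 6 residual degrees of freedom, and the contrast was day 12 minus day 6. P-values were adjusted by Benjamini-Hochberg over the 20033 contigs with at least 1 FPKM in both libraries of day 6 or of day 12, with a threshold of 0.05, and were two-sided. With 2 libraries against 2, an exact permutation test cannot give a two-sided p below 0.333, so single values were not tested that way. In simulated data built from these contigs most inserted changes were called, and false calls made up more of the calls than the nominal share. The inserted changes were few, of 2-fold or 4-fold, and were set only in contigs above a low level on day 6. Neither share therefore carries over to the counts reported here. Day 9 is shown only as the point between.

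At most 2 rising and 2 falling contigs are named. In each direction these are, among called contigs whose day 12 libraries lie outside the range of day 6 and whose mean over the 4 libraries is at least 5 FPKM, the contig with the largest log2 change and the one with the largest FPKM change. The contigs, lists and tests were chosen with earlier results of these data known. Summaries and figures used Python 3.11.15.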

Additional observations from a re-analysis of the deposited data

How the results depend on the processing

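Calls are by limma with an adjusted p under 0.05, and the 5861 rises, 2532 falls and median change of 0.20 are the values as reported. The filter set the number of rises most: 3008 where the 12 libraries had to average 1 FPKM and 2027 with at least 5 FPKM in both libraries of day 6 or of day 12. Under these filters early-unmeasured rises went from 2300 to 385 and 174, their falls from 139 to 33 and 23, and the median log2 change to 0.029 and 9.8e-05. A pseudocount of 0.1 gave 1333 and 84 early-unmeasured calls and a median change of 0.24, and it ended the call of TRINITY_DN318_c0_g1_i2_3 (limma adjusted p = 0.0596).

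Alternatives chosen after seeing the data were the same total FPKM, with 1491 falls, 1162 of them at 1 FPKM or more in all 4 libraries, and a median change of 0.35, and a test without early-unmeasured contigs, with 3367 rises and a median change of 0.044. A pseudocount of 0.1 with the 4 libraries of days 6 and 12 alone, also added, gave a median change of 0.24. Leaving out each of the 12 libraries in turn gave 3328 to 6783 rises and 1011 to 2952 falls. Among contigs at 1 FPKM or more in all libraries of both days it gave 1936 to 5150 calls, 1134 to 2816 of them rises and 802 to 2488 falls. Early-unmeasured calls were 1507 to 2796 higher and 94 to 249 lower, and the median change was 0.085 to 0.35. A group left with 1 library was assumed to vary like the others.

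With the replicate number as a block, 5624 contigs rose and 2320 fell. The numbers were not taken to pair the libraries, since the library differences of days 6 and 12 correlated at -0.03 across contigs, although those of days 3 and 6 did at 0.402, days 6 and 9 at 0.271 and days 3 and 9 at 0.224. The remaining settings were fits of 4 or 6 libraries, no filter, no intensity trend and the median ratio. They kept the counts of rises and falls within 1.5 times and the 4 named contigs in direction. The early-unmeasured rises at 1 FPKM or more in all 4 libraries moved further, from 284 to 474 in the fit of 4 libraries. They numbered 455 in that fit at the median ratio, a setting also chosen after seeing the data.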
